A study of Mus musculus with 6 samples.

Results

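Ezr, Fhod3, Ablim1 and Lcp1 are 4 genes for proteins that bind or build actin filaments, and they were taken by name from the 3257 genes analysed. They encode ezrin (a linker between membrane and actin), a formin, an actin-binding LIM protein and the plastin of leukocytes. The deposited descriptions of the 4 rows matched these names. The values come from RNA sequencing of primary Sertoli cells of mice, which line the seminiferous tubule and nurse the germ cells. The 3 wild-type (WT) libraries came from wild-type C57BL/6 mice, and the cells had been infected with an empty plasmid. The 3 knockout (KO) libraries came from UXT KO animals of the same strain, and the cells had received a virus carrying CRE recombinase. UXT (ART-27) resembles prefoldin subunits and binds the androgen receptor. All cells had been enriched by differential plating and infected in repeated rounds. The age of the animals, the promoter driving Cre and the number of animals behind each library are not given in the sources used here. Since only the KO cells received Cre, the loss of UXT and the Cre construct cannot be told apart. Uxt itself was not analysed here, so the labels were not checked against the targeted transcript.

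Actin filaments give cells their shape, carry tension and anchor junctions, and each of these proteins acts at a different step. Ezrin, of the ezrin-radixin-moesin family, ties membrane proteins to filaments below the cell surface. Formins start new filaments and lengthen them, LIM proteins such as that of Ablim1 attach filaments to other structures, and plastins bundle filaments side by side. Sertoli cells are known for dense actin bundles at the ectoplasmic specializations, the junctions that hold germ cells and form part of the blood-testis barrier.

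In GRCm38, the build equal to mm10, Ezr (gene ID 22350) lies on the minus strand of chromosome 17 at 6738041 to 6782784. Ablim1 (gene ID 226251) lies on the minus strand of chromosome 19 at 57032733 to 57314919, and Lcp1 (gene ID 18826) on the plus strand of chromosome 14 at 75131101 to 75230842. These positions are from the GENCODE annotation, which marks all 4 genes as protein-coding. Exons of Lcp1 shared 530 bases and exons of Fhod3 309 bases with annotated genes on the opposite strand, against 4 bases for Ezr and 0 for Ablim1. The kit was stranded, but the use of strand in counting is not given in the sources used here, so reads of the opposite strand may add to the values of Lcp1 and Fhod3.

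The sequences before the transcription start are shown as a description. The 4 genes were picked for the contrast in which they were lower, and shared control was not tested. RefSeq start sites in GRCm38.p6 matched Ezr, Ablim1 and Lcp1, and for genes with several starts the 5′-most was taken (the first of 5 for Ablim1 and of 2 for Lcp1). Each line gives the 250 bases before the start, 5′ to 3′ on the gene's strand. Capitals mark the GC box GGGCGG, bound by SP factors, and the AP-1 motif TGANTCA, each on either strand. The windows are chr17:6782781-6783030 on the minus strand for Ezr, chr19:57314920-57315169 on the minus strand for Ablim1 and chr14:75130873-75131122 on the plus strand for Lcp1.
Ezr: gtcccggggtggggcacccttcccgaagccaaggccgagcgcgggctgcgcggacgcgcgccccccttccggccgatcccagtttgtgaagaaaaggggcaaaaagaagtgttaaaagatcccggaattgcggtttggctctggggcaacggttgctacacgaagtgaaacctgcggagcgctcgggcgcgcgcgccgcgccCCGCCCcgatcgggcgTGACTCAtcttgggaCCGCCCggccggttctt
Ablim1: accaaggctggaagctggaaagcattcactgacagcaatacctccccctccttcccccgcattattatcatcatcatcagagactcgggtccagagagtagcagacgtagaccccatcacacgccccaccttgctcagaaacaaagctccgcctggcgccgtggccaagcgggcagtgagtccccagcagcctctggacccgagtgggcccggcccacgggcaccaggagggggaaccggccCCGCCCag
Lcp1: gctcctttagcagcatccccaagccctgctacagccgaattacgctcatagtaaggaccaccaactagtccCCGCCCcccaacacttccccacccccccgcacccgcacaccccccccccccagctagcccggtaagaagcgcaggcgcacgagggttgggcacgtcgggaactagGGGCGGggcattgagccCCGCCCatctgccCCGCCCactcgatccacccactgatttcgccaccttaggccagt

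The 3 windows were rich in G and C, at 67.2% for Ezr, 63.2% for Ablim1 and 66.0% for Lcp1, against a median of 52.4% over the 32851 windows of the RefSeq table. A GC box was found in each, with 2 matches for Ezr, 1 for Ablim1 and 4 for Lcp1. Of all windows of this length, 32.7% held a GC box. The AP-1 motif was found once, in Ezr, with its first base 32 bases before the start, and 6.75% of all windows held it. No match was found in these 3 windows for the androgen receptor half-site AGAACA (in 16.1% of all windows), the PU.1 core GAGGAA (23.3%) or the CArG box of serum response factor (1.47%), searched on both strands. At the other annotated starts matches were found for the GC box (2 and 1, at the second and the third Ablim1 start), the AP-1 motif (1, at the second Ablim1 start), the PU.1 core (1 and 2, at the second and the fourth Ablim1 start) and the androgen receptor half-site (1, at the second Lcp1 start). Which starts these cells use was not tested. These are matches of letters and not measured binding sites.

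All 4 transcripts were lower in KO than in WT cells. In the authors' deposited table Ezr was lower by 7.43-fold, Lcp1 by 6.82-fold, Fhod3 by 5.17-fold and Ablim1 by 2.98-fold. For each of them all 3 KO values lay below all 3 WT values, as was so for 65.8% of the table's genes. Every gene of the table had passed the authors' selection by a 1.5-fold change between these same libraries. The largest adjusted p of the authors' own test among the genes analysed was 0.0499, so limma's calls were largely set by that selection. The 4 genes were picked from this table for the same contrast. Their differences are therefore described here and not tested. Of the 3257 genes, limma with Benjamini-Hochberg adjustment called 67.5% lower and 32.1% higher. The deposited values per library are on a log2 scale, and for the 4 genes the differences between group means were smaller than the deposited log2 fold changes. As a share of the log2 fold change that the authors' deposited table gives, the difference between group means was 0.66 for Ezr, 0.63 for Lcp1, 0.58 for Ablim1 and 0.56 for Fhod3. In bulk samples such as these, fewer cells of a type and less RNA per cell cannot be told apart.

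Ezr, the gene of ezrin, had deposited log2 values of 12.91, 13.12 and 13.02 in WT replicates 1, 2 and 3. In KO replicates 1, 2 and 3 its values were 10.88, 11.08 and 11.33. The lowest WT library stood 1.57 above the highest KO library, a gap larger than the range within either group. The means were 13.02 ± 0.11 in WT and 11.10 ± 0.23 in KO cells (SD, n = 3 each). The difference was -1.92 on this scale, with a standard error of 0.12 from limma. By fold it ranked 125 among the 2210 lower genes of the authors' deposited table.

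Fhod3 (gene ID 225288, on the plus strand of chromosome 18 at 24708623 to 25133501 in GRCm38) encodes a formin best known from the sarcomeres of heart muscle. Its log2 values were 8.75, 9.18 and 8.72 in WT replicates 1, 2 and 3, and 7.27, 7.58 and 7.80 in KO replicates 1, 2 and 3. The groups were separated by 0.91, with WT replicate 2 standing above the other WT libraries. The means were 8.88 ± 0.26 in WT and 7.55 ± 0.27 in KO cells (SD, n = 3 each), a difference of -1.33 with a limma standard error of 0.17. Fhod3 was the most variable of the 4 within groups, since 94.9% of the table's genes had a smaller SD in WT and 92.1% a smaller SD in KO cells. By fold it ranked 268 among the lower genes in the authors' deposited table.

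Ablim1 encodes a LIM protein that binds filaments through a villin-type headpiece. Its log2 values were 9.37, 9.60 and 9.39 in WT replicates 1, 2 and 3, and 8.38, 8.61 and 8.65 in KO replicates 1, 2 and 3. The gap between the groups was 0.72, the narrowest of the 4, and still wider than the range within WT (0.23) or KO (0.27). The means were 9.46 ± 0.13 and 8.55 ± 0.15 (SD, n = 3 each), a difference of -0.91 with a limma standard error of 0.11. Ablim1 ranked 713 of 2210 lower genes by fold in the authors' deposited table, where the median fold of lower genes was 2.33.

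Lcp1 encodes L-plastin, the filament-bundling plastin of blood cells. Its log2 values were 11.39, 11.55 and 11.06 in WT replicates 1, 2 and 3. In KO replicates 1, 2 and 3 they were 9.55, 9.48 and 9.72. The groups were separated by 1.34, and WT replicate 3 was the lowest of its group. The means were 11.33 ± 0.25 in WT and 9.58 ± 0.12 in KO cells (SD, n = 3 each), a difference of -1.75 with a limma standard error of 0.13. Lcp1 varied more than 94.3% of the table's genes in WT cells, but more than 59.7% of them in KO cells. It ranked 144 among the lower genes by fold in the authors' deposited table.

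**Figure D1:**
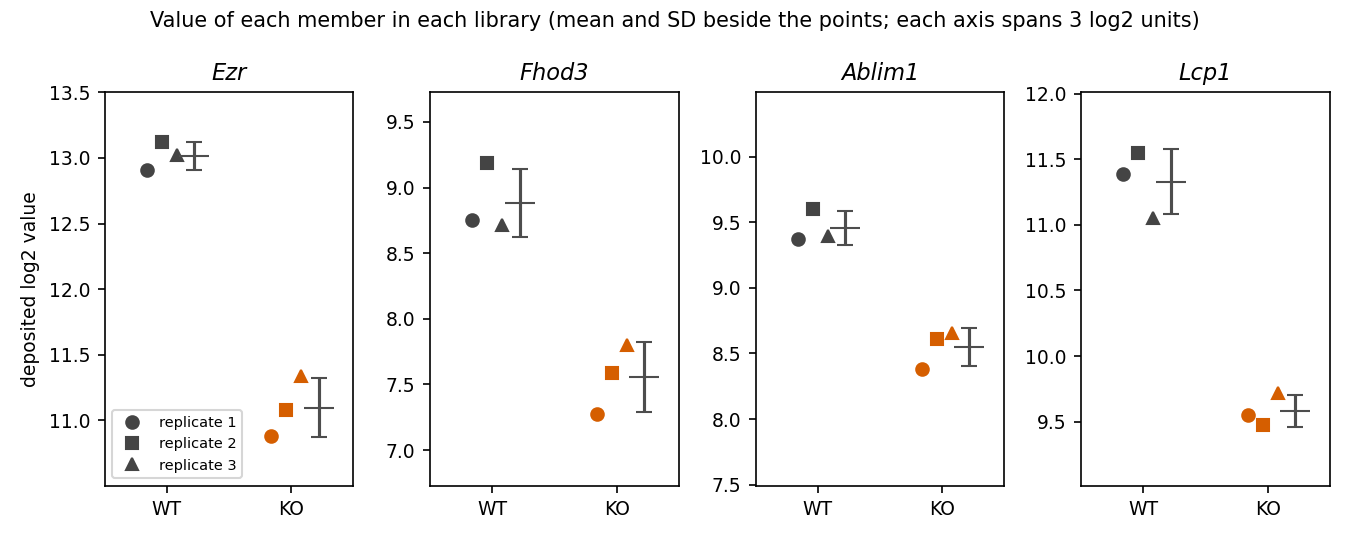
Deposited log2 value (vertical axis) of Ezr, Fhod3, Ablim1 and Lcp1 in each of the 3 WT and 3 KO libraries (points, shaped by replicate number), with the mean and SD of each group beside them. Each panel spans 3 log2 units; for all 4 genes the KO points lie below the WT points, with gaps from 0.72 for Ablim1 to 1.57 for Ezr.

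**Figure D2:**
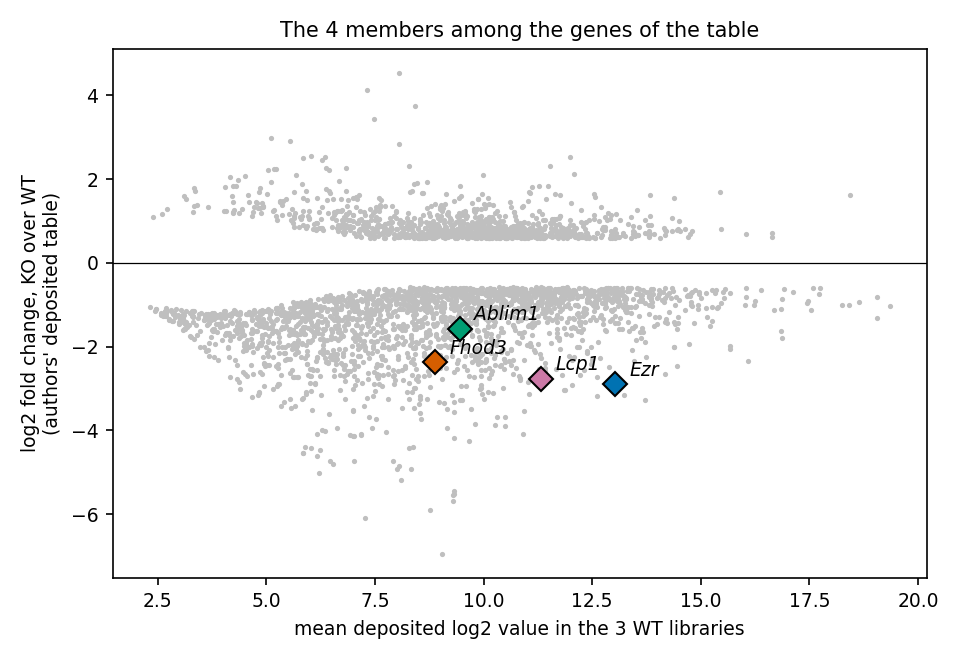
Mean deposited log2 value in the 3 WT libraries (horizontal axis) against the log2 ratio of KO over WT from the authors' deposited table (vertical axis), for the 3257 genes analysed (grey) and the 4 genes (diamonds). The empty band around 0 is the authors' selection at a fold of 1.5; Ezr and Lcp1 lie at -2.89 and -2.77, Fhod3 at -2.37 and Ablim1 at -1.58.

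Levels of the 4 genes were set against each other after division by the length of the longest annotated coding transcript. On the log2 scale per kilobase, WT cells had 11.35 ± 0.11 for Ezr, 9.39 ± 0.25 for Lcp1, 6.62 ± 0.13 for Ablim1 and 6.45 ± 0.26 for Fhod3 (SD, n = 3 each). On this scale Ezr and Lcp1 thus stood apart from each other and from the rest, while Ablim1 and Fhod3 did not differ beyond their spread. The transformation of the deposited values is not given in the sources used here, so these figures need not follow transcript abundance. In KO cells the order was the same, at 9.44 ± 0.23 for Ezr, 7.64 ± 0.12 for Lcp1, 5.71 ± 0.15 for Ablim1 and 5.12 ± 0.27 for Fhod3 (SD, n = 3 each), with Ablim1 and Fhod3 further apart than their SDs. With all annotated exons as the length, Fhod3 stood above Ablim1 in WT cells (6.03 against 5.88) and below it in KO cells (4.70 against 4.97). The length of the transcripts present in these cells is not given in the sources used here.

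Within the groups the 4 genes shared some order of libraries. WT replicate 2 held the highest WT value of all 4 genes, as it did for 44.2% of the 2210 lower genes of the table. KO replicate 3 held the highest KO value of all 4, as it did for 37.6% of the lower genes. KO replicate 1 was lowest for Ezr, Fhod3 and Ablim1, as for 44.6% of the lower genes, and KO replicate 2 was lowest for Lcp1, as for 15.3%. Over all genes analysed the median was 9.17, 9.18 and 9.15 in the WT libraries and 8.82, 8.88 and 8.91 in the KO libraries, on the log2 scale.

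Beyond these 4, other regulators of actin in the table were mostly lower in KO cells. In 10 lists holding 268 genes, 66 had a row in the table, of which 62 were not among the 4. Of these 62, limma called 57 lower and 5 higher, a share of 91.9% lower beside 67.5% over the whole table. After quantile normalization between libraries 31 of the 62 were lower and 5 higher, and with equal library medians 33 and 5. Counting called genes only, the share lower among the 62 went from 91.9% to 86.1% and 86.8% under these scalings. Over the whole table that share went from 67.8% to 52.1% and 47.9%, and the called lower genes from 2200 to 1143 and 1024. The median of the 62 was -1.12 in the authors' deposited table on the log2 scale, beside -0.88 over the whole table. Falls of at least 4-fold in the authors' deposited table were found for 11 of the 62 (17.7%), beside 13.5% of the table's genes. The calls are not independent evidence, because the authors selected the table on these same libraries. Nothing can be said of listed genes without a row, which were not analysed here. Among the 62, 10 also stood on a marker list of a cell type, and without these, an alternative chosen after seeing the data, 47 were lower and 5 higher. Those left still held Fmnl1, a formin of leukocytes, so the marker lists did not take out every gene of other cell types.

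Of the 24 genes of ezrin's family and partners, 7 were in the table, and besides Ezr 5 fell and 1 rose (limma, adjusted p from 5.77e-05 to 0.00217). Limma called 67.5% of the table's genes lower and 32.1% higher, which this count stands beside. The related family members Rdx and Msn were not analysed here. In the authors' deposited table Icam2, an adhesion receptor that ezrin binds and a marker of endothelium, fell 17.0-fold, and Podxl, a sialomucin of apical membranes, fell 2.52-fold. The log2 values of Icam2 lay below the library medians, going from 6.17 ± 0.19 in WT to 5.25 ± 0.02 in KO cells (SD, n = 3 each). The FERM domain genes Epb41l5 and Frmd4a fell, by 2.08-fold and 1.74-fold as the authors' deposited table gives it, and Stk10, a kinase that phosphorylates ezrin, fell 1.73-fold. Stk10 no longer passed after quantile normalization or with equal library medians (limma, adjusted p = 0.107 and 0.0958), and the other genes of this list did. Epb41l1, a relative of the red cell membrane protein 4.1, was higher by 2.03-fold as the authors' deposited table gives it. Epb41l1 went from 13.14 ± 0.07 to 13.81 ± 0.10 on the log2 scale (SD, n = 3 each, limma adjusted p = 1.26e-04). All 3 of its KO values lay above all WT values, as was so for 31.7% of the table's genes.

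Of 18 formins and other nucleators, 6 were in the table. The 5 other than Fhod3 all fell (limma, adjusted p from 6.03e-05 to 0.00277), beside 67.5% of the table's genes. Daam2, a formin linked to Wnt signalling, fell 4.82-fold and its paralogue Daam1 1.72-fold, as listed in the authors' deposited table. Daam2 went from 11.32 ± 0.22 to 9.46 ± 0.44 on the log2 scale (SD, n = 3 each; limma adjusted p = 6.03e-05). Going by the authors' deposited table, the nucleator genes Spire2 and Cobl fell 3.81-fold and 2.30-fold, and Fmnl1, a formin of leukocytes, fell 3.18-fold. Of these, neither Fmnl1 nor Cobl passed limma's threshold after quantile normalization (adjusted p = 0.318 and 0.124), and Fmnl1 did not pass with equal library medians (adjusted p = 0.121).

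Of 12 genes of the ABLIM, villin and gelsolin families, 4 were in the table. The 3 besides Ablim1 fell (limma, adjusted p from 1.03e-04 to 7.67e-04), beside 67.5% of the table's genes. As the authors' deposited table lists them, Vill, a villin-like gene, fell 2.46-fold, the filament-severing gene Scin 2.03-fold and gelsolin, Gsn, 1.84-fold. Gsn had a log2 mean of 14.49 ± 0.05 in WT and 13.90 ± 0.13 in KO cells (SD, n = 3 each). After quantile normalization Vill did not pass limma's threshold (adjusted p = 0.10).

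Of 38 bundling and crosslinking proteins 12 were in the table. The 11 besides Lcp1 fell (limma), beside 67.5% of the table's genes. The other plastin genes, Pls1 and Pls3, were not analysed here. From the authors' deposited table, Sptb, a spectrin of the red cell membrane, fell 6.53-fold and Aif1, a macrophage marker that binds actin, fell 6.27-fold. Sptb went from 8.63 ± 0.19 to 7.13 ± 0.30 on the log2 scale (SD, n = 3 each, limma adjusted p = 5.74e-05). Aif1 lay far below the library medians, going from 4.91 ± 0.19 in WT to 4.48 ± 0.01 in KO cells (SD, n = 3 each). By the authors' deposited table, Espn, the gene of espin, a bundling protein of ectoplasmic specializations, fell 2.36-fold. Its log2 means were 9.90 ± 0.20 in WT and 9.13 ± 0.23 in KO cells (SD, n = 3 each). Synpo2, Actn2, Synpo, Actn3, Add3, Marcksl1 and Tagln fell between 1.51-fold (Tagln) and 2.43-fold (Synpo2) in the authors' deposited table. After quantile normalization the differences of Actn2, Actn3 and Tagln were 0.080, 0.012 and 0.039, without a call (limma, adjusted p = 0.456, 0.930 and 0.732). With equal library medians that of Actn2 was 0.024 (limma, adjusted p = 0.837). Of the 11 falls, 5 were called after quantile normalization and 5 with equal library medians. Aif1 passed under neither scaling (adjusted p = 0.0655 and 0.221), while Sptb and Espn passed under both. Actn2 lost its call without WT replicate 2, WT replicate 3 or KO replicate 1 (limma, adjusted p = 0.0632, 0.0726 and 0.0622).

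Branched filaments are nucleated by the Arp2/3 complex, and of 41 genes of this complex and its regulators 10 were in the table. Limma called 9 lower and 1 higher (adjusted p from 5.52e-05 to 0.0233), beside 67.5% and 32.1% of the table's genes. The authors' deposited table shows that Hcls1, the cortactin of blood cells, fell 6.36-fold and Coro1a, a coronin of leukocytes, fell 5.63-fold, while Wash1, an activator on endosomes, rose 1.73-fold. Of the 9 lower genes, 4 were called after quantile normalization and 5 with equal library medians, Hcls1 and Coro1a among them both times. The sign changed for 3 of the 9, Cyfip2 and Coro2a after quantile normalization and Was with equal library medians. None of these was called there (limma, adjusted p = 0.865, 0.787 and 0.456). Cyfip2 lost its call without WT replicate 2, WT replicate 3 or KO replicate 2 (limma, adjusted p = 0.0894, 0.0686 and 0.0870).

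Of 28 nonmuscle and unconventional myosins 7 were in the table. Limma called 6 lower and 1 higher (adjusted p from 2.05e-04 to 0.00925), beside 67.5% and 32.1% of the table's genes. Of the 6 lower genes Myo1g had a difference of 0.019 after quantile normalization, without a call (limma, adjusted p = 0.855). In the authors' deposited table Myo1f fell 3.25-fold and Myo5b, a motor of recycling endosomes, fell 3.13-fold, while Myo5a, a vesicle motor, rose 1.61-fold. Myo1f did not pass after quantile normalization (adjusted p = 0.125). All 7 of 28 actins, tropomyosins and actin-associated LIM proteins in the table fell, beside 67.5% of the table's genes. Their limma adjusted p ran from 4.76e-04 to 0.00691. By the authors' deposited table the muscle actin genes Actg2 and Actc1 fell 2.72-fold and 2.52-fold, though reads of near-identical actin genes may be split between them. This group depended most on the scaling, with 1 of the 7 called lower after quantile normalization (Actg2) and 2 with equal library medians (Actg2 and Acta2). The WT and KO values of Actc1 overlapped, and it passed under neither scaling (limma, adjusted p = 0.163 and 0.0527). Of 21 capping genes 3 were in the table (limma, adjusted p from 3.60e-04 to 7.37e-04). In the authors' deposited table Eps8l1 and Tmod2, which encode proteins of filament ends, rose 3.69-fold and 2.0-fold, and Lmod1 fell 1.96-fold. None of the 22 genes of the cofilin, profilin and thymosin list was among the genes analysed.

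**Figure D3:**
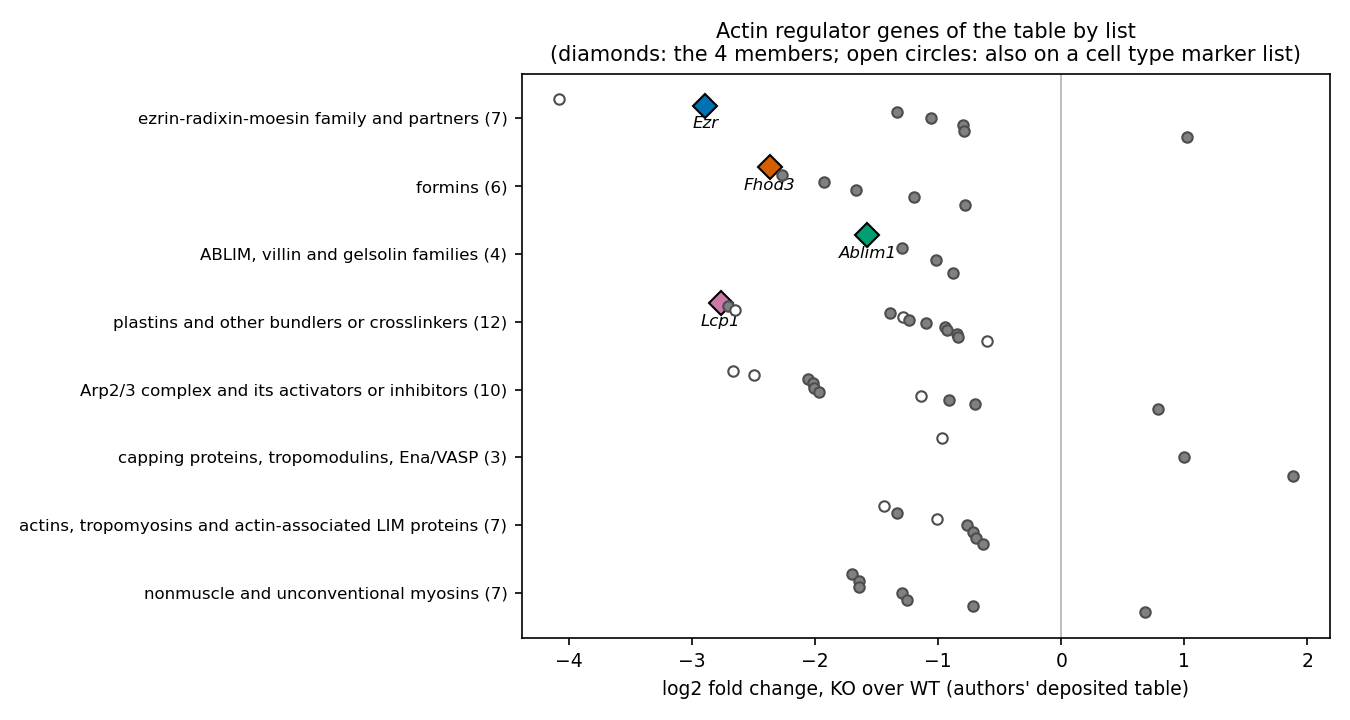
Log2 ratio of KO over WT from the authors' deposited table (horizontal axis) for the actin regulator genes of the lists described above, by list with the number of genes in brackets. Diamonds are the 4 genes, filled circles the other genes and open circles genes that a cell type marker list also holds; the 5 genes called higher by limma, Epb41l1, Wash1, Myo5a, Eps8l1 and Tmod2, lie right of 0 and the others left of it.

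Markers of Sertoli cells and of several other cell types were in the table and moved with the groups. The table was selected for genes that differ between the groups, so it cannot check the labelled cell type. Over the whole table limma called 67.5% of genes lower and 32.1% higher, which the counts below stand beside. Under quantile normalization and equal library medians the table's called lower genes went from 2200 to 1143 and 1024. Of 26 Sertoli cell markers 19 were in the table and all 19 fell (limma), their median in the authors' deposited table being 3.25-fold, with Shbg and Cst12 at 17.2-fold and 7.94-fold. After quantile normalization 13 of them were called lower, and with equal library medians 12 were lower and 1, Cst9, higher. Their summed level, as the log2 of the sum of linear values, was 17.87 to 18.22 in WT and 16.88 to 17.15 in KO libraries. Of 29 macrophage and leukocyte markers 27 were in the table and all 27 fell (limma), by 2.20-fold to 14.7-fold in the authors' deposited table, with a median of 5.63-fold. Under the 2 other scalings 24 and 23 were called lower. Lyz1 changed sign under both and Was with equal library medians, without a call. Itgam and Fcer1g led them, and their summed level was 15.05 to 15.41 in WT and 13.62 to 13.85 in KO libraries. Of 21 endothelial markers 19 were in the table and all 19 fell (limma), their median in the authors' deposited table being 11.9-fold, led by Dll4 and Gpihbp1; 18 and 17 were called lower under the other scalings, and Tek turned after quantile normalization. Their summed level was 14.02 to 14.13 in WT and 13.19 to 13.39 in KO libraries. Of 16 myoid markers 13 were in the table, with 12 lower and 1 higher (limma), led by Kcnj8 and Myh11, and a summed level of 19.06 to 19.37 in WT and 18.59 to 18.80 in KO libraries. Of the 12 lower myoid markers 8 and 9 were called under the other scalings, and Tagln and Rgs5 changed sign after quantile normalization, without a call.

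Leydig cell markers went the other way, with 4 of 9 in the table and all 4 higher (limma), led by Hsd3b1 at 5.0-fold and Fdx1 at 3.0-fold in the authors' deposited table. Their summed level was 15.38 to 15.54 in WT and 15.96 to 16.32 in KO libraries. All 5 of 10 fibroblast markers in the table were lower (limma), led by Mfap5 and Col1a1, with a summed level of 20.45 to 20.60 in WT and 19.38 to 20.12 in KO libraries, and 3 of the 5 were called under each other scaling. Of 14 germ cell markers 2, Kit and Sycp3, were in the table and lower (limma, with a summed level of 7.89 to 7.94 in WT and 6.20 to 6.38 in KO libraries). Sycp3 had differences of 0.0089 and 0.106 under the 2 other scalings and was called under neither. Of 6 red blood cell markers 1, Alas2, was in the table and lower (limma; 8.40 to 8.71 in WT and 6.57 to 6.85 in KO libraries). Among the markers analysed, 0 were listed at 0 in any library. The part of these cell types in the values of Ezr, Fhod3, Ablim1 and Lcp1 was not tested.

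Like all genes that fell, Lcp1 and the leukocyte markers were lower in the KO libraries. The lowest KO library was replicate 2 for Lcp1 and replicate 1 for the leukocyte median. For Lcp1 KO replicates 2 and 1 (9.48 and 9.55) lay closer than its KO SD of 0.12, and this order was not tested. Relative to its WT mean, Lcp1 stood at 0.06, 0.22 and -0.27 in WT replicates 1, 2 and 3, where the median over the leukocyte markers was 0.04, 0.15 and -0.17. In KO replicates 1, 2 and 3 Lcp1 stood at -1.78, -1.85 and -1.61 and the leukocyte median at -1.42, -1.32 and -1.19. Ezr stood at -0.11, 0.11 and 0.00 in WT replicates 1, 2 and 3 and at -2.13, -1.94 and -1.68 in the KO replicates. The Sertoli marker median was -0.13, 0.12 and 0.02 in the WT and -1.02, -0.72 and -0.71 in the KO replicates. The endothelial median, at -0.06, 0.06 and 0.01 in WT replicates 1, 2 and 3, had the same WT order as Ezr. The KO order of Ezr, with replicate 1 lowest and replicate 3 highest, was also that of the Sertoli, leukocyte and endothelial medians, the last at -1.38, -1.34 and -1.24, and so marked out none of these lists. Fhod3 stood at -1.61, -1.30 and -1.08 and Ablim1 at -1.07, -0.85 and -0.80 in KO replicates 1, 2 and 3, again with replicate 1 lowest. The myoid median was 0.06, 0.09 and -0.18 in WT replicates 1, 2 and 3, in the order of Lcp1 and the leukocyte median. In KO replicates 1, 2 and 3 the myoid median was -0.70, -0.56 and -0.94, lowest in replicate 3. The ratio of these differences to the authors' log2 fold changes varied between genes, so sizes are not compared between genes or lists here.

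**Figure D4:**
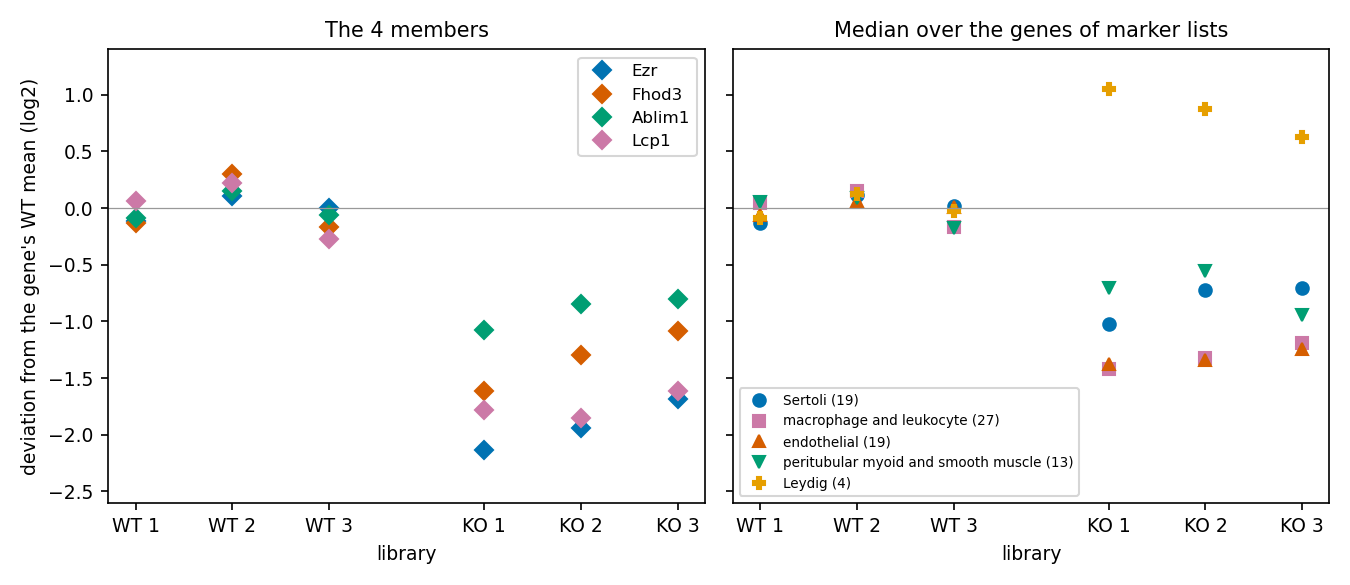
Deviation of the deposited log2 value from the gene's own WT mean (vertical axis) in each library (horizontal axis), for the 4 genes (left) and as the median over the genes of 5 marker lists (right, with the number of genes in brackets). Ezr and Lcp1 lie between -2.13 and -1.61 in KO libraries, Fhod3 and Ablim1 between -1.61 and -0.80, and the Leydig marker median lies above 0.

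The genes whose deviations over the 6 libraries were closest to each of the 4 were found by the root mean square distance on the log2 scale. The deviations include the contrast on which the table was selected. It was taken on the deposited values per library, and genes close by it could differ in the authors' fold, such as Nrarp, 6.48-fold lower in the authors' deposited table beside 2.98-fold for Ablim1. The choice of measure decided the neighbours, since by Pearson correlation 0 of the 3 closest genes were the same for each of the 4. Closest to Ezr were Pglyrp3, a peptidoglycan recognition protein (distance 0.045), Ctnnal1, a relative of alpha-catenin (0.050), and Pdgfb, a growth factor (0.071). Closest to Fhod3 were the transcription cofactor gene Cited1 (0.076), the adhesion receptor gene Adgrg1 (0.082) and Hcls1 (0.096). Closest to Ablim1 were the cholesterol exporter gene Abcg1 (0.046), the kinase gene Prkcb (0.050) and Nrarp, a Notch-regulated gene (0.054). Closest to Lcp1 were the complement gene C1qb (0.092), the angiopoietin gene Angpt2 (0.105) and Rac2, the Rac of blood cells (0.106). C1qb is on the leukocyte list, as is Hcls1. Among the 4 themselves, the distance was smallest for Ezr and Lcp1 (0.206) and largest for Ezr and Ablim1 (0.718). These distances mostly restate the KO minus WT differences, -1.92 for Ezr, -1.75 for Lcp1 and -0.91 for Ablim1. They are no measure of likeness apart from the contrast the genes were chosen on.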

How the data were processed

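RNA was measured by sequencing in 6 libraries, 3 WT and 3 KO, grouped and numbered by the sample titles. Per the submitters' processing notes the tools were FastQC, STAR and DESeq2 and the build mm10, with no versions. The counter, its settings and the transformation of the values are not given in the sources used here. Per the file headers, the authors deposited log2 values per library, an average log2 expression, a log2 fold change, a signed fold score, and p-values with adjusted p-values, 56 of them listed as 0. The table held 3261 rows. The 4 rows of 2 repeated symbols were left out. No counts were used, so depth is unknown and no counting interval was computed.

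Genes were tested with limma 3.58.1 (R 4.3.3, mean-variance trend, no covariate) on all 6 libraries, adjusted by Benjamini-Hochberg over 3257 genes, called at an adjusted p under 0.05 and the authors' fold of at least 1.5. The script was tested on simulated data. The labels do not say that replicates came from separate animals or cultures, so p-values measure the spread between libraries, which may be technical. The members, the 10 actin lists and the 8 marker lists were chosen with earlier results of these data known. Named genes were the 4, all genes of their own 4 lists, the 2 largest falls and rises of each other list, 2 leading genes of each marker list and the 3 nearest genes per member. Cyfip2, Coro2a, Was, Myo1g, Acta2, Cst9, Lyz1, Tek and Rgs5 were named after their values were seen. Values of 1 actin list and of 1 gene of another are not reported here, though the totals over all lists hold them.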

Additional observations from a re-analysis of the deposited data

How the results depend on the processing

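No counts were used here, so what depth limits is unknown. Scaling mattered most: quantile normalization and equal library medians moved the median difference over the table from -0.40 to -0.07 and -0.10, which their construction brings about in a table where most genes are lower. Under quantile normalization the differences were -1.68 for Ezr, -0.93 for Fhod3, -0.57 for Ablim1 and -1.53 for Lcp1, and under equal medians -1.62, -1.04, -0.61 and -1.45. The called lower genes went from 2200 to 1143 and 1024 over the table, and from 57 to 31 and 33 among the other actin genes. Among the genes of the actin lists and the germ cell markers, differences that changed sign under quantile normalization were those of Actn2 (0.080), Actn3 (0.012), Tagln (0.039), Cyfip2 (0.031), Coro2a (0.031), Myo1g (0.019) and Sycp3 (0.0089), and under equal medians those of Actn2 (0.024), Was (0.062) and Sycp3 (0.106). The other markers that turned were Lyz1, Tek and Rgs5 under quantile normalization and Lyz1 and Cst9 under equal medians. Of all these genes Cst9 alone was called higher in KO cells.

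Leaving out each library in turn, the difference ranged from -2.04 to -1.81 for Ezr, -1.46 to -1.18 for Fhod3, -0.96 to -0.82 for Ablim1 and -1.89 to -1.64 for Lcp1. Whether replicate numbers pair the libraries was not settled. Of 3 same-numbered pairs 1 had a correlation of deviations over 0.1 (0.177 for replicate 1), beside 0.196 for WT replicate 2 and KO replicate 3. In all, 2 of 6 libraries correlated best with their own number. With the replicate block 3252 genes were called, against 3244 without it, and 3244 were called in both. No trend, a filter on low values and an adjusted p of 0.01 left the counts of calls within 1.5 times. By Pearson correlation 0 of the 3 genes closest to each of Ezr, Fhod3, Ablim1 and Lcp1 were the same.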
